A study of Mus musculus with 2 samples.

Results

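Astrocytes are the glial cells that clear transmitter from synapses, buffer water and ions, couple to each other through gap junctions and secrete lipid carriers and matrix proteins. The data described here are the footprint counts of 10 genes widely used to mark them, out of 12530 mouse genes listed in each of 2 ribosome profiling libraries of spinal cord. The 10 genes were taken from a list of identifiers by a rule that sets no limit on any measured value: Gfap (ENSMUSG00000020932), Aqp4 (ENSMUSG00000024411), Aldoc (ENSMUSG00000017390), Slc1a2 (ENSMUSG00000005089), Slc1a3 (ENSMUSG00000005360), Glul (ENSMUSG00000026473), Gja1 (ENSMUSG00000050953), S100b (ENSMUSG00000033208), Apoe (ENSMUSG00000002985) and Sparcl1 (ENSMUSG00000029309). All 10 were listed with reads in both libraries.

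One library came from wild-type mice and the other from mice heterozygous for Gars C201R, a missense allele of the gene for glycyl-tRNA synthetase, the enzyme that charges glycine tRNAs. Each was made from the combined spinal cord lysates of 3 animals, whose age, sex and strain background the labels do not state. There is thus 1 pooled sample per genotype, so no difference below has a replicate check, no p-value was computed, and every interval covers counting error only. The series set out to measure ribosome occupancy at glycine codons. The values analysed here are 1 read total and 1 RPKM (reads scaled to gene length and library total) for each gene, with no position inside a gene and no RNA library beside them. Footprints of a gene reflect both its mRNA amount and the ribosomes on it. In whole tissue, fewer cells of a type and less RNA per cell cannot be told apart.

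The 10 genes fall into functional groups. Gfap encodes the main intermediate filament of astrocytes, whose amount is a customary sign of their reactive state, and Gja1 encodes the main connexin of their gap junctions. Slc1a2 and Slc1a3 encode the transporters that take up glutamate from the synaptic cleft, and Glul encodes glutamine synthetase, which turns that glutamate into glutamine. Aldoc is the brain form of the glycolytic enzyme aldolase, S100b a calcium-binding protein and Aqp4 the water channel of the perivascular end-feet. Apoe is the chief lipid carrier secreted by astrocytes and Sparcl1 a secreted matrix protein that promotes synapse formation. None of these is fully private to astrocytes in adult cord: Apoe is also made by microglia, Glul and S100b by oligodendrocytes, and Sparcl1 by endothelial cells and neurons. The files give identifiers only, and the reference used here pairs none of them with symbols, so markers of those other cells and further astrocyte genes are not analysed here.

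Gene reads totalled 7770935 in wild type and 3491159 in the heterozygote. The median listed gene had 206 and 96 reads. Synthetic ERCC spike-ins made up 0.00669% of the listed wild-type reads and 0.650% of the listed heterozygous reads, and took no part in the scaling, so every ratio below is relative to the gene reads. The astrocyte genes lay far above the median gene. The least covered of them, Slc1a3, had 2590 reads in both libraries together, and all 10 were among the 973 best covered genes, those with 2152 reads or more.

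Astrocyte genes held the highest levels in the whole table. Apoe ranked 1 of 12530 by RPKM in each library, with 4815 RPKM in the wild-type and 5446 RPKM in the heterozygous library. Sparcl1 ranked 2 in each, with 3644 and 3859 RPKM, and was also the gene with the most reads, 1.01% of all wild-type and 1.07% of all heterozygous gene reads. Aldoc ranked 5 in the wild-type library at 2390 RPKM and 6 in the heterozygous library at 2018 RPKM. The secreted proteins and the glycolytic enzyme were thus the strongest of the list. Gfap followed at rank 48 with 728 RPKM in the wild-type library and at rank 27 with 1087 RPKM in the heterozygous library.

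The remaining genes spread over a wide range. Glul stood at 405 RPKM in the wild-type and 345 RPKM in the heterozygous library, S100b at 395 and 354, Slc1a2 at 270 and 231, and Gja1 at 227 and 288. Aqp4, at 77.8 and 74.5 RPKM, and Slc1a3, at 58.1 and 48.2 RPKM, were the lowest. The median of all listed genes was 8.40 RPKM in wild type and 8.63 RPKM in the heterozygote, below each astrocyte gene. From Slc1a3 to Apoe the level differed 82.9-fold in wild type and 113-fold in the heterozygote.

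In this order by RPKM, 8 of the 9 neighbouring pairs differed beyond counting error in each library. The exception was Glul and S100b in both: S100b was exceeded by Glul 1.03-fold in the wild-type library (95% counting interval 0.989 to 1.06), and exceeded it 1.03-fold in the heterozygous library (0.968 to 1.09). Gja1 and Slc1a2 exchanged places beyond counting error. Slc1a2 was 1.19-fold above Gja1 in the wild-type library (1.16 to 1.23), and Gja1 was 1.25-fold above Slc1a2 in the heterozygous library (1.198 to 1.299). The other 6 genes held the same place in both orders. Orders of other genes were not computed, so these counts do not set the astrocyte genes apart. The order rests on the gene lengths behind the deposited RPKM, which ran from 1408 nt for Apoe to 11595 nt for Slc1a2. These lengths are not those of coding sequences alone, so a gene with long untranslated ends reads low for the footprints it has. By reads, Slc1a2 ranked 21 and 22, far above its ranks of 182 and 227 by RPKM. Gja1 ranked 166 and 115 by reads, below Slc1a2 in both libraries, so their exchange of places rests on these lengths.

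**Figure D1:**
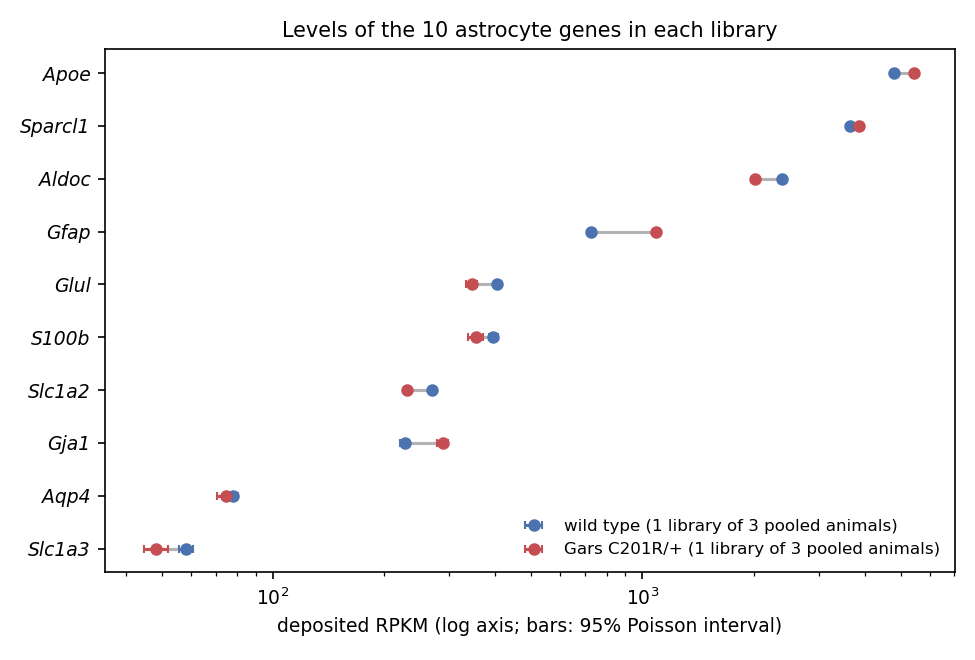
Deposited RPKM of each astrocyte gene (log axis) in the wild-type library (blue) and the heterozygous library (red), with exact 95% Poisson intervals, many of them narrower than the point. Apoe, Sparcl1 and Aldoc lie highest in both libraries, Gfap and Gja1 are visibly further right in the heterozygous library, and Slc1a3 is lowest at 58.1 and 48.2 RPKM.

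Between the genotypes, the astrocyte genes did not shift as a block. After TMM scaling, 4 of the 10 were higher and 6 lower in the heterozygous library, and the log2 ratio of heterozygous over wild type ran from -0.32 for Slc1a3 to 0.53 for Gfap, with a median of -0.16. Ratios below equal levels were found for 52.9% of all tested genes and 58.7% of the 973 best covered genes, so 6 of 10 is near the general share. The median over the 9726 genes with 100 or more reads was -0.03, and over the 973 best covered genes -0.08. The calling rule asked for a ratio of at least 1.5-fold and a 95% counting interval that excluded equal levels. By it, 0 of the 10 astrocyte genes were called higher and 0 lower, against 8.14% of all tested genes called higher and 11.2% called lower. Among the 973 best covered genes, 1.13% were called higher and 6.58% lower. That set includes the 10 astrocyte genes, starts at 2152 reads and was not matched to them on read number. At such shares few or no calls were to be expected among 10 genes, so the 0 calls do not set them apart. The interval excluded equal levels for all 10 astrocyte genes, but at this depth it did so for 77.8% of the best covered genes, so that count does not set them apart.

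Gfap stood furthest from equal levels and had the highest ratio of the list. Its reads numbered 15012 in wild type (95% Poisson interval 14773 to 15254) and 10130 in the heterozygote (9934 to 10329), although the heterozygous library was 2.21-fold shallower. The scaled ratio was 1.45-fold (1.411 to 1.484). Its deposited RPKM, which is not TMM-scaled, had counting intervals of 716 to 739 in wild type and 1066 to 1108 in the heterozygote. Of the other best covered genes, 22 had a higher ratio than Gfap and 950 a lower one. Among all tested genes, 90.3% had a lower ratio than Gfap. Gfap was singled out as the highest of 10 genes after the values had been seen. Gfap took 0.193% of wild-type and 0.290% of heterozygous gene reads. Scaling to total gene reads in place of TMM moved Gfap to 1.502-fold, just past the limit, so whether it counts as higher depends on that choice.

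Gja1 had the next highest ratio, with 5434 wild-type reads (5290 to 5580) and 3114 heterozygous reads (3006 to 3225). Its ratio was 1.23-fold (1.18 to 1.28), under the limit, and 115 of the other best covered genes had a higher one. The filament and the connexin thus headed the list, ahead of the secreted proteins.

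To give the sequence context of these genes, the 250 bases upstream of the annotated start are shown for Gfap and Gja1, the highest ratios, and for Slc1a3, the lowest. They are taken from RefSeq promoter windows of build GRCm38.p6, 5′ to 3′ on the gene's strand. Capitals mark matches on either strand to the STAT motif TTCNNNGAA, the AP-1 motif TGANTCA or the TATA box TATAAA. The motifs were chosen after the sequences had been seen. The Gfap window is chr11:102897201-102897450 on the minus strand, and the gene spans chr11:102887336-102897200. The Gja1 window is chr10:56377050-56377299 on the plus strand, and the gene spans chr10:56377300-56390419. The Slc1a3 window is chr15:8710808-8711057 on the minus strand, and the gene spans chr15:8634124-8710807.
Gfap: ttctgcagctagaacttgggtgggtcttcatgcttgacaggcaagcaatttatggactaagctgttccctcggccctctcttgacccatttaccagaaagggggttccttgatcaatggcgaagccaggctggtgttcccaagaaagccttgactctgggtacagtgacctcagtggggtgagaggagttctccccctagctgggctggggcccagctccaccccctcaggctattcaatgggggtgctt
Gja1: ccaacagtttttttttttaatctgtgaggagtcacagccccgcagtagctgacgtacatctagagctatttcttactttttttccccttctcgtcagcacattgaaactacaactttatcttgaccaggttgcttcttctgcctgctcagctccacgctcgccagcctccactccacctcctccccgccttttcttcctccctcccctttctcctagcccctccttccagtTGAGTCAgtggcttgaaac
Slc1a3: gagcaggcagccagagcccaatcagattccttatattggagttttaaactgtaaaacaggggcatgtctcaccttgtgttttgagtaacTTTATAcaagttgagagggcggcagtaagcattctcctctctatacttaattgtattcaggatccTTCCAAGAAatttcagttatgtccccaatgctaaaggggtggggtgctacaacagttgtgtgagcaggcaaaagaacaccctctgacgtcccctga

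The Gfap window held none of these motifs. Bases after the annotated start were not searched in any gene, so a TATA box or other motif lying there is not counted, and the match-free window says nothing about the Gfap promoter beyond these letters. The Gja1 window held an AP-1 match, TGAGTCA, ending 13 bases before the start. The Slc1a3 window held a STAT match, TTCCAAGAA, ending 88 bases before the start, and a TATA-box match on the opposite strand ending 156 bases before it. Across 32851 RefSeq windows of the same length, 7.02% held the STAT motif, 6.75% the AP-1 motif and 12.4% the TATA box. The table held 11 windows for 8 of the astrocyte genes, of which 2 had a STAT match, 1 an AP-1 match and 2 a TATA-box match. The long NFI motif, for a factor family known for astrocyte genes, had 0 matches in the 11 windows and was found in 0.0365% of all windows. At so low a share no match was to be expected in 11 windows, so the 0 says nothing about these genes. Matches are letters in a window only and carry no measurement of binding.

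The glutamate pathway genes had nearly the same ratio. Slc1a2 spans chr2:102658239-102790784, Slc1a3 lies as given above, and Glul spans chr1:153899929-153909723 in GRCm38.p6. Slc1a2 had 24409 wild-type reads (24104 to 24717) and 9424 heterozygous reads (9235 to 9616), a log2 ratio of -0.27 (-0.31 to -0.24). Slc1a3 had 1884 reads (1800 to 1971) and 706 reads (655 to 760), a log2 ratio of -0.32 (-0.44 to -0.19). Glul had 8815 reads (8632 to 9001) and 3390 reads (3277 to 3506), a log2 ratio of -0.28 (-0.34 to -0.22). All 3 genes of glutamate uptake and conversion thus lay 17.2% to 19.6% under the wild-type level, each short of the 1.5-fold limit. The balance of the transporters did not differ beyond counting error, with Slc1a2 at 4.65 times the RPKM of Slc1a3 in wild type and 4.79 times in the heterozygote, a relative change of 1.03-fold (0.942 to 1.13). Together the 3 genes took 0.452% of the wild-type gene reads (95% Wilson interval 0.447% to 0.457%) and 0.387% of the heterozygous gene reads (0.381% to 0.394%). These shares are of total gene reads without TMM scaling, so they differ by less than the 17.2% to 19.6% above. TMM-scaled ratios like those of the 3 genes were common: 229 of the best covered genes lay below Slc1a3, and the robust SD of the log2 ratio over those 973 genes was 0.32.

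Aldoc (chr11:78323073-78327781) and S100b (chr10:76253836-76261319) lay on the same side. Aldoc had 31645 wild-type reads (31297 to 31996) and 12076 heterozygous reads (11862 to 12293), a log2 ratio of -0.29 (-0.32 to -0.26). S100b had 4570 reads (4438 to 4704) and 1847 reads (1764 to 1933), a log2 ratio of -0.21 (-0.29 to -0.13). The glycolytic enzyme therefore matched the glutamate genes in size, 18.2% under the wild-type level, and the calcium-binding protein was 13.3% under it.

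Aqp4, Apoe (chr7:19696244-19701310) and Sparcl1 (chr5:104079108-104114088) differed least. Aqp4 had 3063 wild-type reads (2955 to 3173) and 1325 heterozygous reads (1255 to 1398), a log2 ratio of -0.11 (-0.20 to -0.01), close to the median of the best covered genes. Apoe had 52813 reads (52364 to 53265) and 26993 reads (26672 to 27317), a ratio of 1.10-fold (1.08 to 1.11). Sparcl1 had 78326 reads (77778 to 78877) and 37483 reads (37105 to 37864), a ratio of 1.03-fold (1.01 to 1.04). Counting error is small for the secreted proteins at these read numbers, and the robust SD of 0.32 among the best covered genes was wider than their intervals.

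**Figure D2:**
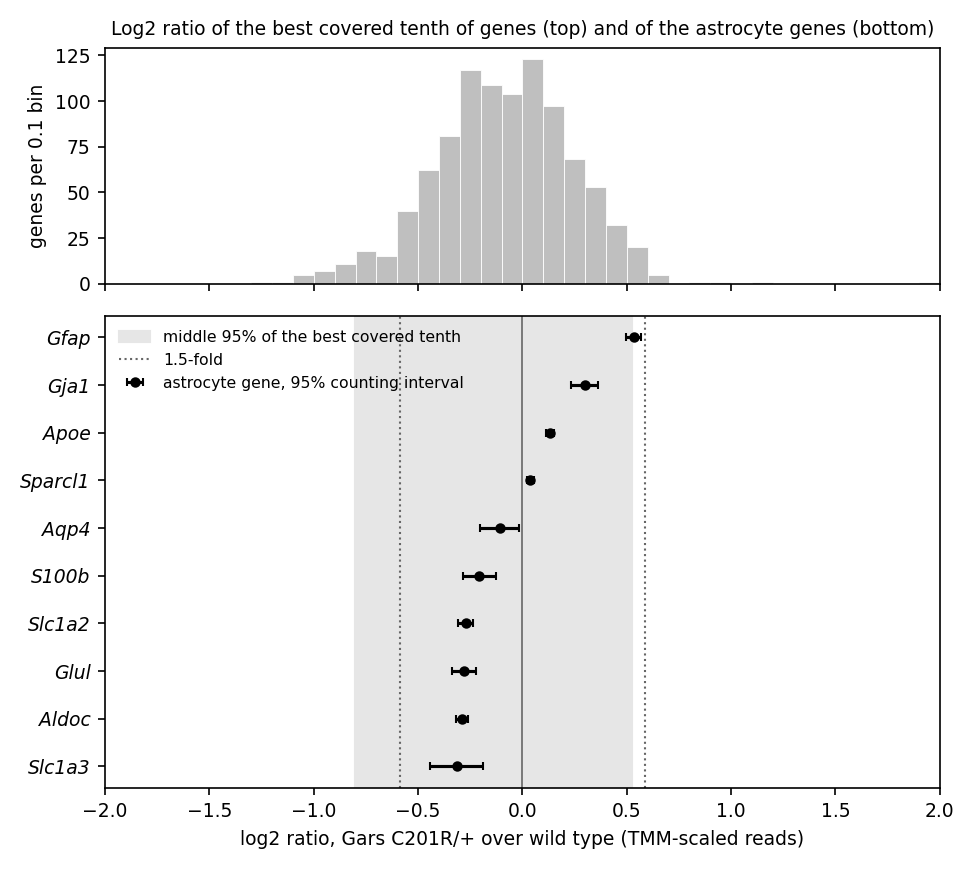
Top, number of the 973 best covered genes in each 0.1-wide bin of the log2 ratio, heterozygous over wild type (values beyond 2 are counted in the outermost bin). Bottom, log2 ratio of each astrocyte gene with its 95% counting interval, with the middle 95% of the best covered genes shaded (-0.80 to 0.52) and 1.5-fold marked by dotted lines. Gfap sits at 0.53, just beyond the shaded range, and the other 9 genes lie inside it.

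The difference between the ratios of any pair of genes does not depend on how the libraries are scaled, and it was computed for all 45 pairs. In 34 pairs the 95% interval excluded 0. Pairs of other genes were not computed, so this count does not set the astrocyte genes apart. The SD of the astrocyte log2 ratios was 0.29, against a robust SD of 0.32 over the 973 best covered genes. Gfap differed from each of the other 9 genes, by 0.24 (0.16 to 0.31) from Gja1 and by 0.85 (0.72 to 0.98) from Slc1a3. The level of Gfap relative to Glul was 1.80 in wild type and 3.15 in the heterozygote, a 1.75-fold difference (1.67 to 1.84). Relative to Aldoc it was 0.305 and 0.539, a 1.77-fold difference (1.71 to 1.83). Gja1 also differed from each other gene, and relative to Slc1a2 it was higher by 0.57 (the difference of Slc1a2 minus Gja1 was -0.57, -0.64 to -0.50).

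Slc1a2, Slc1a3, Glul, Aldoc and S100b formed the opposite end. Of the 10 pairs among these 5 genes, 0 had an interval that excluded 0, and their log2 ratios spanned 0.11, against 0.85 over the whole list. The 5 genes were put together after their values had been seen, so this describes them and supports nothing further. The pair with the smallest interval, Slc1a2 and Aldoc, differed by -0.02 (Aldoc minus Slc1a2, -0.06 to 0.03). The remaining pair within counting error was Aqp4 and S100b, at 0.10 (-0.02 to 0.22). Apoe and Sparcl1, though both near equal levels, differed from each other by 0.09 (0.07 to 0.12).

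**Figure D3:**
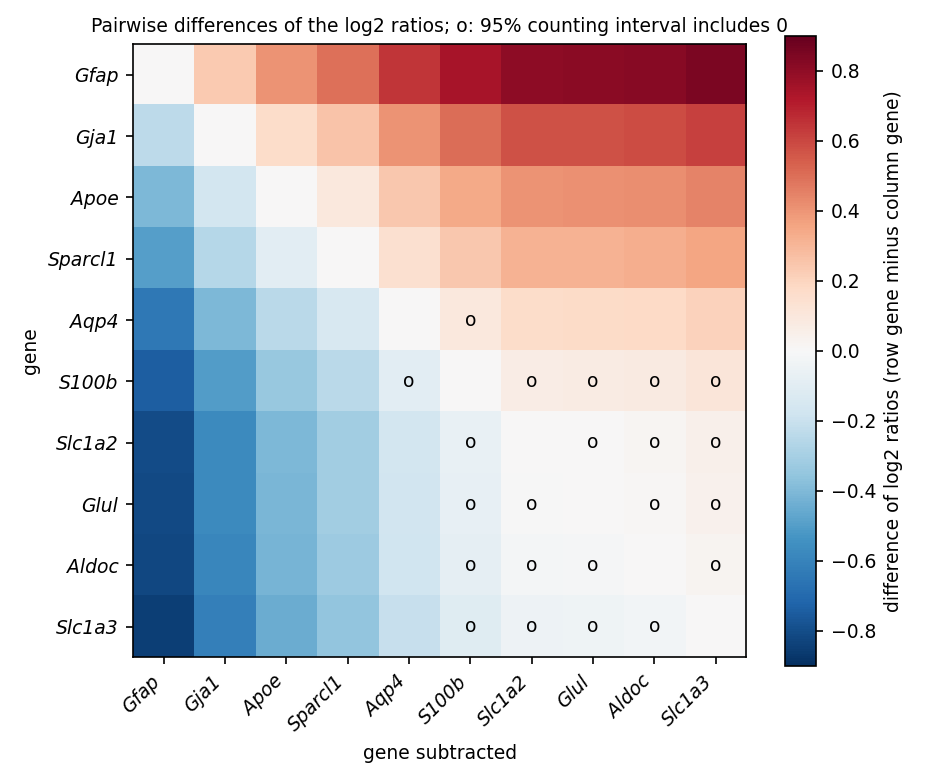
Difference of the log2 ratios for each pair of astrocyte genes, row gene minus column gene, with genes ordered by their ratio; o marks a pair whose 95% counting interval includes 0. The 11 marked pairs are the 10 among Slc1a2, Slc1a3, Glul, Aldoc and S100b, and the pair of Aqp4 and S100b; Gfap and Gja1 have no marked pair.

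Summed over the list, astrocyte reads made up nearly equal shares of both libraries. The 10 genes took 225971 reads, 2.91% of the wild-type gene reads (95% Wilson interval 2.90% to 2.92%), and 106488 reads, 3.05% of the heterozygous gene reads (3.03% to 3.07%). After TMM scaling the summed log2 ratio was 0.02 (0.0047 to 0.03), opposite in sign to the median of the single genes, -0.16. Apoe and Sparcl1 together held 58.0% of the list's reads in wild type and 60.5% in the heterozygote. Genes with fewer reads, such as Gfap and Aldoc, also moved the summed ratio. Without Apoe and Sparcl1 the summed log2 ratio was -0.07 (-0.09 to -0.06), without Gfap -0.03, and without Apoe -0.02. Leaving out any other single gene kept it above 0, from 0.0033 without Sparcl1 to 0.059 without Aldoc. Without Gja1 or without Sparcl1 its interval included 0. The direction of the sum therefore depended on whether Gfap or Apoe was counted, while its parts differed in both directions.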

How the data were processed

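Ribosome-protected fragments of mouse spinal cord were counted in 1 library per genotype, each from the pooled lysates of 3 animals, per the labels' protocols. Per the submitters' processing notes, the tools were Bowtie 1.2.2 and HTSeq 0.9.1 with build GRCm38. No source used here gives the settings, annotation release, strand setting, rRNA removal or the part of a gene counted, so reads shared with overlapping or near-identical genes could not be told apart. The authors deposited whole-number read counts, used here as deposited, and RPKM values. Reads over RPKM gave whole gene lengths, within 1e-06 nt and equal in both libraries, with totals of 7790126 and 3520348 reads, so the deposited RPKM is reads scaled to length and to those totals.

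The 12530 genes, without the 18 ERCC spike-ins, were scaled with TMM (edgeR 4.0.16, R 4.3.3). Log2 ratios carry a prior count of 0.5 reads and exact conditional binomial (Clopper-Pearson) 95% intervals. Single counts have exact Poisson intervals, shares Wilson intervals, and differences between genes normal intervals from the counting variance. Reads may not be independent molecules, which no interval allows for. Genes needed 100 reads in both libraries together to be tested, and 1.5-fold with an interval excluding equal levels to be called. The script of the rule was tested on simulated data that held counting error only, which does not show how the rule performs on these libraries. Alternatives were total-count, upper-quartile and DESeq2 1.42.0 scaling, TMM without genes above 1% of a library, other limits, thinning, and leaving out each gene. All 10 members were named. The members and lists were chosen with earlier results of these data known. Symbols of the members came with the list; 0 of the 49997 RefSeq genes in the reference table carry an Ensembl identifier, so lists for other cell types were not analysed here. Other steps ran in Python 3.11.15 (scipy 1.17.1, numpy 2.4.6, pandas 2.3.3, matplotlib 3.10.9).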

Additional observations from a re-analysis of the deposited data

Results flagged for a closer look

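The ERCC spike-ins, reads outside the mouse genes, made up 0.650% of the listed reads of the heterozygous library against 0.00669% of the wild-type library. The labels do not state whether or when spike-ins were added, and the astrocyte ratios were scaled without them.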

How the results depend on the processing

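Over 7 alternatives, the 70 single-gene ratios had the same sign as the reported value in 70 of 70 cases, and 55 lay inside the reported 95% interval. Total-count scaling moved every log2 ratio up by 0.05 and upper-quartile scaling by 0.04. The negative ratio nearest to 0 was -0.11 (Aqp4), and all alternatives reuse the same counts, so the shared sign is little evidence. With total gene reads, the number of astrocyte genes called higher was 1 (Gfap, 1.502-fold), against 0 under the 9 other alternatives, and 9.79% of all tested genes were called higher with that scaling; upper-quartile scaling left Gfap at 1.488-fold. No alternative called an astrocyte gene lower. The summed log2 ratio of 0.02 became 0.069 with total gene reads and 0.055 with upper-quartile scaling. It was -0.030 without Gfap, 0.059 without Aldoc, 0.046 without Slc1a2, 0.026 without Glul, -0.022 without Apoe and 0.0033 without Sparcl1, and the median of the 10 single ratios was -0.16. With 99% intervals 34 of the 45 pairs differed, as with 95%. Depth limits Slc1a3 most, whose interval ran from -0.44 to -0.19. No paired analysis was possible because each genotype has 1 library, and no replicate could be left out. The order of levels by coding length and the protein composition were not run, since no coding sequence or protein was in the reference used here.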
